A study of Mus musculus with 6 samples.

Results

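The 9 genes described here encode sensors of RNA inside the cell and the proteins that act on their signal: the RIG-I-like receptors Ddx58, Ifih1 and Dhx58, their adaptor Mavs, the kinase Eif2ak2, the RNA editor Adar, the nucleic acid sensor Zbp1, and the necroptosis proteins Ripk3 and Mlkl. They were taken by symbol from a count table of 23122 genes, and all 9 passed the filter on low counts. The table comes from RNA sequencing of 6 samples of subcutaneous tumors in BALB/c mice, all female and 6 to 8 weeks of age. Each sample is called a tumor here, although nothing states that the samples came from separate mice. The tumors were started from 500000 cells of CT26, a mouse colorectal carcinoma line, and treatment began at a volume of 100 to 200 mm3. The TP-18 group (3 tumors) had received TP-18, described in the series title as an antagonist of the prostaglandin E2 receptors EP2 and EP4, by mouth at 50 mg/kg once a day for 3 weeks. The vehicle group (3 tumors) had received vehicle over the same time. The labels name no genetic change in either group. Whole tumors were sequenced, so host cells and carcinoma cells are read together, and more cells of a type and more RNA per cell cannot be told apart.

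Cells detect viral or misplaced self RNA by its shape and chemical ends. RIG-I, the product of Ddx58, binds short RNA with a phosphorylated end, MDA5, the product of Ifih1, binds long base-paired RNA, and LGP2, the product of Dhx58, lacks the signalling domain of the other two and tunes their activity. RIG-I and MDA5 signal through MAVS on mitochondria to the kinases TBK1 and IKK epsilon, which activate IRF3 and IRF7 and switch on type I interferon. PKR, encoded by Eif2ak2, stops translation by phosphorylating eIF2 alpha, ADAR1 edits adenosine to inosine in paired RNA so that self RNA is not sensed, and ZBP1 binds nucleic acid in the Z form and recruits RIPK3, which phosphorylates MLKL to open the cell membrane. Many of these genes are themselves induced by interferon.

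Total counts were 35347034 to 36489081 in the TP-18 libraries and 34813482 to 35163739 in the vehicle libraries. Vehicle 1 and vehicle 3 lay farthest apart on the second principal component, at 38.9 and -44.5. By edgeR's quasi-likelihood test, 1006 of 14189 tested genes were higher in TP-18 tumors (7.09%) and 747 were lower (5.26%). The same comparison by limma on log2(FPKM + 1), which has no scaling beyond library total, gave 1376 higher and 215 lower. Of the 8 colon carcinoma epithelial markers 3 were tested, of which 0 were higher and 1 lower, and the list summed to 194 to 237 CPM in TP-18 tumors and 282 to 352 CPM in vehicle tumors. The lower one, Krt20, a keratin of gut epithelium that made up most of that sum, averaged 203 ± 20.7 CPM in TP-18 tumors and 307 ± 40.5 CPM in vehicle tumors (SD, n = 3 each), and the count was 0 without vehicle 2, TP-18 1 or TP-18 3. Cdh1, the gene of E-cadherin, measured 4.09 ± 0.796 CPM in TP-18 tumors and 1.85 ± 0.706 CPM in vehicle tumors (adjusted p = 0.0647 by edgeR), and the keratin Krt18 5.84 ± 1.76 and 10.6 ± 2.24 CPM (0.0649). DESeq2 called 2 of the list higher and 3 lower. Krt19 summed to 11 reads in TP-18 tumors and 108 in vehicle tumors. It failed the filter on low counts and was not tested, so not every vehicle tumor reached the minimum of that filter. Epcam, Krt8, Cdx2 and Vil1, also epithelial markers of this list, were close to absent. Their reads summed over a group were 39, 19, 16 and 9 in TP-18 tumors and 2, 41, 37 and 3 in vehicle tumors.

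Promoter sequence was searched for 2 motifs through which interferons can act. The part of these motifs in the changes with TP-18 was not tested. RefSeq windows of GRCm38.p6, from 250 bases before to 50 after an annotated start, were found for 7 of the 9 genes (9 windows, 3 of them for Adar), and none was found for Dhx58 and Zbp1. The core of the interferon-stimulated response element, searched on either strand as GAAA, any 2 bases and GAAA again, was found in the windows of 3 genes, Ddx58, Ifih1 and Eif2ak2, and in 3.44% of 32851 mouse windows of this length. The core of the gamma-activated site, TTC, any 3 bases and GAA, which reads the same on both strands, was found in Eif2ak2 and in the most downstream Adar window, and in 8.3% of all windows. The 4 windows with a match are shown with the matched letters in capitals, and the window of Mavs, which held neither motif, is shown beside them; the sequences run 5′ to 3′ on the strand of the gene.
Ddx58 (chr4:40239776-40240075, minus strand): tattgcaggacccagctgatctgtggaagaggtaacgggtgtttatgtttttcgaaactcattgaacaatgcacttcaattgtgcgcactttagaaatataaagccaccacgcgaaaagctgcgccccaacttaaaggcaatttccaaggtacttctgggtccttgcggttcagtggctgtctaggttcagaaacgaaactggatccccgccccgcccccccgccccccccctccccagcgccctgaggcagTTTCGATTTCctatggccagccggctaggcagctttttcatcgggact
Ifih1 (chr2:62646206-62646505, minus strand): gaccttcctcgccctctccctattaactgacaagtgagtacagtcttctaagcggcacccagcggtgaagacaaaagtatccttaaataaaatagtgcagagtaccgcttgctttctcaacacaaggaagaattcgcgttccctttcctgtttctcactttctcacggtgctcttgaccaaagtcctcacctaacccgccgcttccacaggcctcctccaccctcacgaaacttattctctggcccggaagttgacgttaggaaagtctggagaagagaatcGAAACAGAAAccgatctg
Eif2ak2 (chr17:78882523-78882822, minus strand): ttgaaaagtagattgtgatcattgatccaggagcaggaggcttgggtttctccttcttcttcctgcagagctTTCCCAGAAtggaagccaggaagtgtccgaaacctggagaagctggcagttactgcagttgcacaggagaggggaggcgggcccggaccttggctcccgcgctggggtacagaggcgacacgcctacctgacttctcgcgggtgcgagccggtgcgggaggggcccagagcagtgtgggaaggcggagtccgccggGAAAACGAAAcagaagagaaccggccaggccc
Adar, most downstream start (chr3:89730468-89730767, plus strand): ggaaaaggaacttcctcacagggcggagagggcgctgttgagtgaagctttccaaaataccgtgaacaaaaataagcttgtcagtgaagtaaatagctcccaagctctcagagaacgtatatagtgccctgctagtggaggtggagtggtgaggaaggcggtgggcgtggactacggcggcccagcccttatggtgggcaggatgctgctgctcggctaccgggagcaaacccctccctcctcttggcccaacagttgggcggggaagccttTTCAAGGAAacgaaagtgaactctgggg
Mavs (chr2:131233813-131234112, plus strand): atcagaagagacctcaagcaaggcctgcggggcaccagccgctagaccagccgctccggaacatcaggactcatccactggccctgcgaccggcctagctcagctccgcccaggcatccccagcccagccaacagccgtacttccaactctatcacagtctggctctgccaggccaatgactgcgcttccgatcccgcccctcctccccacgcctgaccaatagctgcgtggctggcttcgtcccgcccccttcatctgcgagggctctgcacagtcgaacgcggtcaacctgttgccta
The response element letters began 3 bases into the annotated transcript in Ddx58 (on the opposite strand), 33 bases in for Ifih1 and 19 bases in for Eif2ak2. The gamma-activated letters began 178 bases before the start in Eif2ak2 and 23 bases after it in Adar. Neither motif was found in the windows of Mavs, Ripk3 and Mlkl or in the other two of Adar. A match describes letters and not a bound site, and its absence says only that these letters are not in the window.

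Setting TP-18 against vehicle asks which of these transcripts differ in a tumor after 3 weeks of treatment. Of the sensors and enzymes, 6 rose: Zbp1 by 3.51-fold, Ifih1 by 2.09-fold, Dhx58 by 1.82-fold, Eif2ak2 by 1.77-fold, Ddx58 by 1.67-fold and Adar by 1.50-fold. The adaptor Mavs and the membrane-permeabilizing Mlkl had changes of 1.09-fold and 1.13-fold that missed the threshold, as did Ripk3 at 1.53-fold. Thus 6 of 9 genes passed the test as higher and 0 as lower, beside 7.09% and 5.26% of all tested genes. At an unadjusted p under 0.05, 7 were higher and 0 lower, and DESeq2 and limma-voom called 7 and 6 higher and 0 lower. The count of members called higher was 3 without vehicle 2 or without TP-18 1, and 4 to 7 without any other library. In 7 of the 9, Ripk3 included, every TP-18 tumor lay above every vehicle tumor, which 18% of all tested genes also showed. The median log2 change was 0.74 over the 9 genes and -0.0084 over all tested genes.

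**Figure D1:**
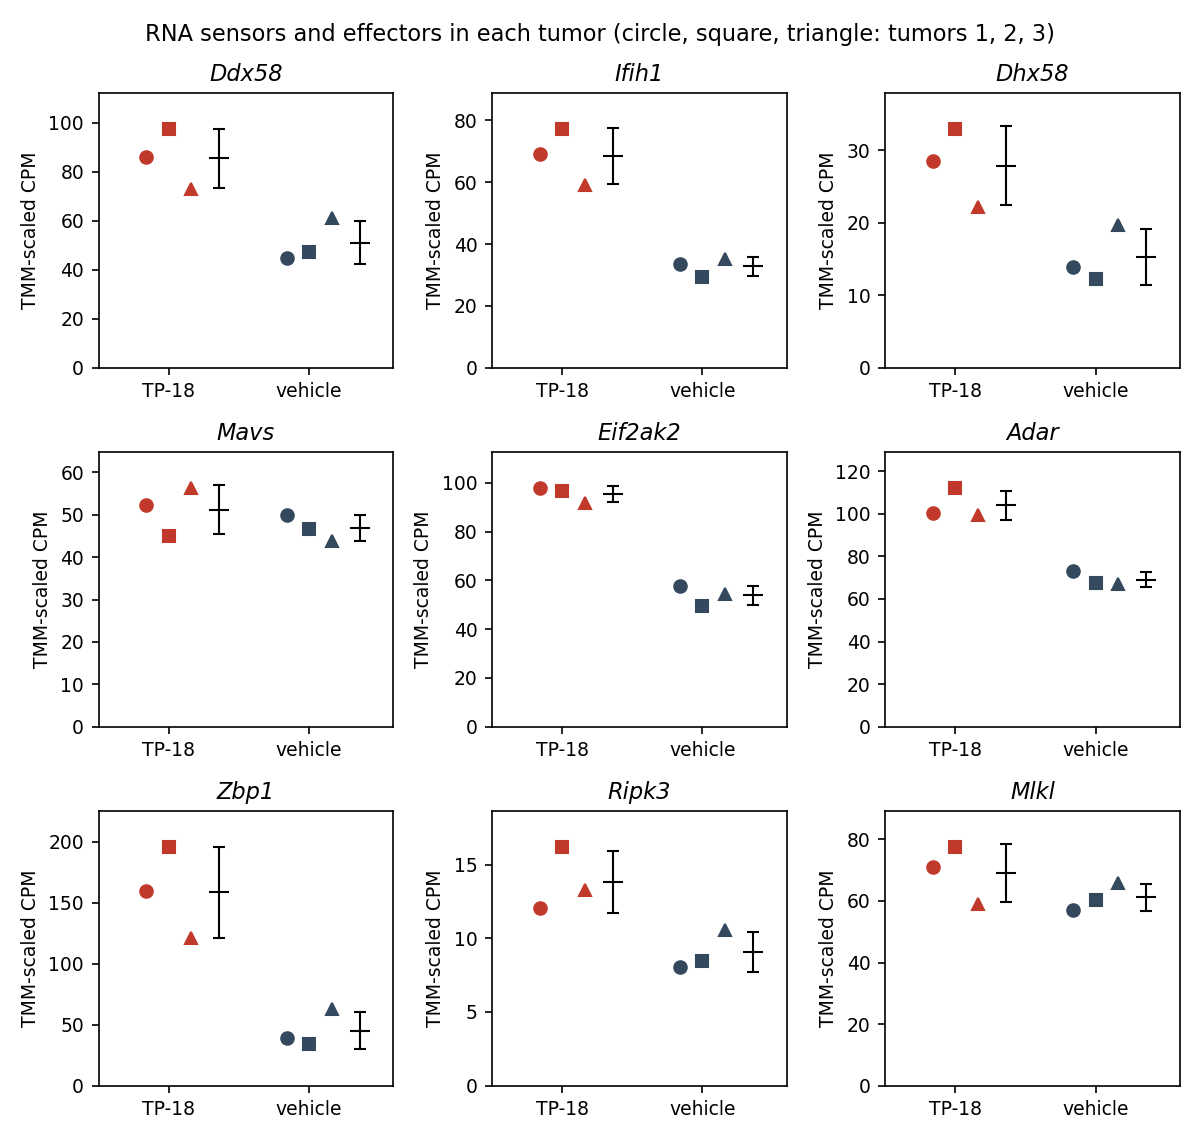
TMM-scaled CPM of each gene in each of the 3 TP-18 and 3 vehicle tumors, on axes that start at 0, with the mean and SD of a group as a black bar. The groups do not overlap in 7 panels, while in Mavs and Mlkl at least 1 TP-18 tumor lies within the vehicle range.

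Among the RIG-I-like receptors, Ddx58 (Entrez 230073, chromosome 4, 40203777 to 40239825 in GRCm38) had 85.9, 97.2 and 73.0 CPM in TP-18 tumors 1 to 3, against 44.6, 47.3 and 61.0 CPM in vehicle tumors 1 to 3. Every TP-18 tumor was above every vehicle tumor, and the lowest TP-18 value was 1.20 times the highest vehicle value, that of vehicle 3. Its log2 change was 0.74 ± 0.15 (SE; 95% interval 0.40 to 1.09) with an adjusted p of 0.0215. That call was lost without vehicle 2 (adjusted p = 0.0849), without TP-18 1 (0.0636) or without TP-18 2 (0.0608).

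Ifih1 (Entrez 71586, chromosome 2, 62595618 to 62646255) had 69.2, 77.1 and 59.2 CPM in the TP-18 tumors, against 33.6, 29.5 and 35.2 CPM in the vehicle tumors. Its groups stood further apart than those of the other two receptors, with the lowest TP-18 value 1.68 times the highest vehicle value. The log2 change was 1.06 ± 0.12 (95% interval 0.79 to 1.34, adjusted p = 0.00311), and it passed whichever library was left out.

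Dhx58 (Entrez 80861, chromosome 11, 100694884 to 100704271) had 28.6, 32.9 and 22.2 CPM in the TP-18 tumors, against 13.9, 12.3 and 19.7 CPM in the vehicle tumors. The gap between groups was narrow, at 1.13 times between TP-18 3 and vehicle 3. Its log2 change of 0.87 ± 0.21 (95% interval 0.38 to 1.36) had an adjusted p of 0.0380, and the call was kept without vehicle 3 and lost on leaving out vehicle 1 (0.0868), TP-18 3 (0.0513), vehicle 2 (0.115), TP-18 2 (0.102) or TP-18 1 (0.106). The annotated span of the long noncoding RNA Gm38483 overlaps Dhx58. It had 446 reads in TP-18 tumors and 246 in vehicle tumors, while Dhx58 had 3131 and 1520, and since the strand of the libraries is not stated the share of reads between them is uncertain.

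FPKM, counts per gene length and library total, allow the receptors to be compared with each other. Of the summed FPKM of the 3 receptors, Ddx58 made up 42.1%, 42.1% and 43.1% in TP-18 tumors, against 43.7%, 48.4% and 46.4% in vehicle tumors. Ifih1 made up 29.9%, 29.4% and 30.8% in TP-18 tumors, against 29.0%, 26.5% and 23.6% in vehicle tumors. Both separated the groups, with Ddx58 the lower and Ifih1 the higher share in TP-18 tumors. The gaps were narrow, 43.1% in TP-18 3 to 43.7% in vehicle 1 for Ddx58, and 29.4% in TP-18 2 to 29.0% in vehicle 1 for Ifih1. The shares of a tumor sum to the whole, so they are not separate observations. The share of Dhx58 ran from 26.2% to 28.5% in TP-18 tumors and from 25.1% to 30.0% in vehicle tumors, which overlap. These shares were not tested.

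Mavs (Entrez 228607, chromosome 2, 131234063 to 131248025), the mitochondrial adaptor on which RIG-I and MDA5 converge, had 52.4, 45.0 and 56.3 CPM in TP-18 tumors, against 50.1, 46.6 and 43.8 CPM in vehicle tumors. The groups overlapped, TP-18 2 being below both vehicle 1 and vehicle 2. The log2 change was 0.13 ± 0.10, with a 95% interval of -0.11 to 0.37 and an adjusted p of 0.438, so a fall by more than 0.11 or a rise by more than 0.37 on the log2 scale lies outside that interval. Each of the RIG-I-like receptors had a 95% interval that began above the Mavs estimate, at 0.38 or more, but the difference between genes was not tested.

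Eif2ak2 (Entrez 19106, chromosome 17, 78850504 to 78882572), the gene of the translation-blocking kinase PKR, had 97.7, 96.6 and 91.8 CPM in TP-18 tumors, against 57.5, 49.6 and 54.5 CPM in vehicle tumors. It had the smallest adjusted p of the 9 genes, at 0.00182, with a log2 change of 0.82 ± 0.08 (95% interval 0.64 to 1.01). The TP-18 tumors agreed closely here, with an SD of 3.16 CPM around a mean of 95.4, and the vehicle tumors had an SD of 3.98 around 53.9 (n = 3 each). It passed whichever library was left out.

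Adar (Entrez 56417, chromosome 3, 89714469 to 89753455) had 100.3, 112 and 99.6 CPM in TP-18 tumors, against 73.3, 67.3 and 66.8 CPM in vehicle tumors. Its log2 change was smaller than that of the other called members, at 0.59 ± 0.08 (95% interval 0.40 to 0.78, adjusted p = 0.00606), and it too passed whichever library was left out. Adar makes an interferon-inducible long protein and a constitutive short one from separate starts, which a count per gene does not tell apart.

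Zbp1 (Entrez 58203, chromosome 2, 173206612 to 173218959), the Z-form nucleic acid sensor, had 159, 195 and 121 CPM in TP-18 tumors, against 39.1, 34.0 and 62.6 CPM in vehicle tumors. The lowest TP-18 tumor was 1.93 times the highest vehicle tumor, and no other member had a gap of this size. The log2 change of 1.81 ± 0.28 (95% interval 1.12 to 2.50) had an adjusted p of 0.0164, which was 0.0512 without vehicle 2 and 0.0552 without TP-18 1. Its spread was also wide, with an SD of 37.4 CPM around 158 in TP-18 tumors and of 15.2 around 45.2 in vehicle tumors (n = 3 each).

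The necroptosis proteins downstream of ZBP1 did not pass the test. Ripk3 (Entrez 56532, chromosome 14, 55784995 to 55788857), the kinase that ZBP1 engages, had 12.0, 16.2 and 13.3 CPM in TP-18 tumors, against 8.08, 8.45 and 10.6 CPM in vehicle tumors. The groups did not overlap, and the log2 change of 0.61 ± 0.17 (95% interval 0.23 to 1.00) had an adjusted p of 0.0505. Without vehicle 3 that p was 0.0356, and DESeq2 gave 0.0132, while leaving out any other library gave 0.0755 or more.

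Mlkl (Entrez 74568, chromosome 8, 111311255 to 111338479), the protein that permeabilizes the membrane, had 71.0, 77.5 and 59.0 CPM in TP-18 tumors, against 57.2, 60.4 and 66.0 CPM in vehicle tumors. TP-18 3 fell below vehicle 2 and vehicle 3, so the groups overlapped. The log2 change was 0.18 ± 0.11, with a 95% interval of -0.08 to 0.44 and an adjusted p of 0.329.

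**Figure D2:**
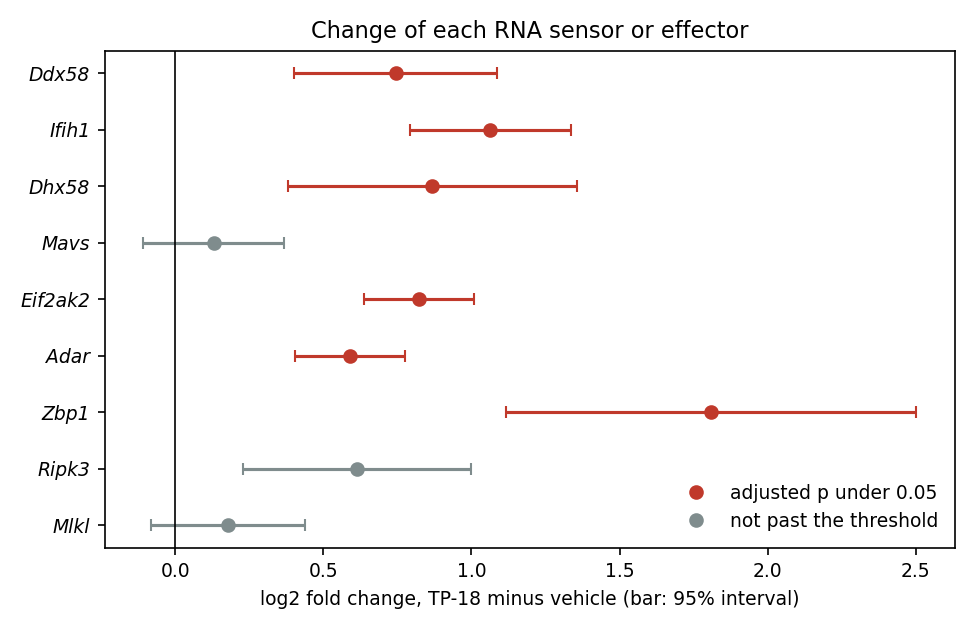
Log2 fold change of each gene, TP-18 minus vehicle, with its 95% interval from edgeR's quasi-likelihood test. The 6 red genes passed an adjusted p of 0.05; the interval of Zbp1 runs from 1.12 to 2.50 and those of Mavs and Mlkl include 0.

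Within a group the same tumors tended to be high or low. TP-18 2 was the highest TP-18 tumor for 7 of the 9 genes and TP-18 3 the lowest for 7, with Mavs in the opposite order. Vehicle 3 was the highest vehicle tumor for 6 genes and vehicle 1 for the other 3, Mavs, Eif2ak2 and Adar. Ifng, the gene of interferon gamma, had 3.60, 4.54 and 2.23 CPM in the TP-18 tumors, against 0.455, 0.122 and 0.375 CPM in the vehicle tumors, so TP-18 2 was again highest and TP-18 3 lowest among TP-18 tumors, while vehicle 1 was highest among vehicle tumors. The part of Ifng in the order of tumors was not tested.

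**Figure D3:**
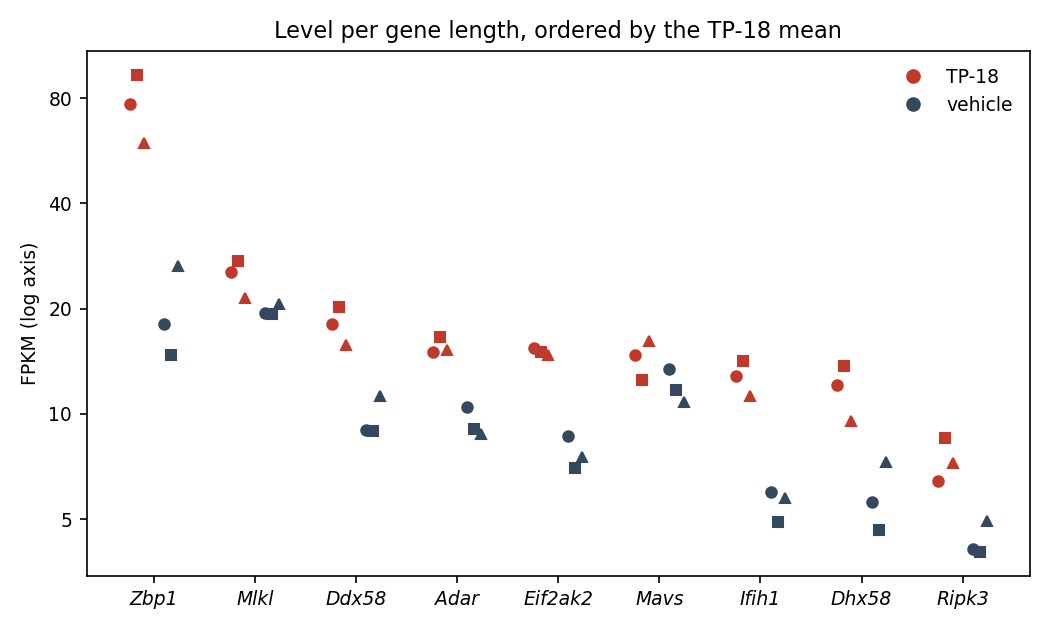
FPKM of each gene in each tumor on a log axis, with genes ordered by their mean in TP-18 tumors. Zbp1 stands above all other genes in the TP-18 tumors, and Ripk3 is the lowest gene on average in both groups.

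Levels can be compared between genes per length, as FPKM. In TP-18 tumors Zbp1 was the most abundant of the 9 at 76.8 ± 16.9 FPKM, then Mlkl at 24.7 ± 2.95 and Ddx58 at 18.0 ± 2.27 FPKM, each above the next in all 3 tumors. Adar (15.6 ± 0.83 FPKM), Eif2ak2 (15.1 ± 0.33), Mavs (14.5 ± 1.84) and Ifih1 (12.8 ± 1.47) followed, and each exceeded the next in 2 of 3 tumors. Ifih1 was above Dhx58 (11.8 ± 2.10 FPKM) in all 3, although their ranges overlapped, and Ripk3 was lowest at 7.39 ± 1.05 FPKM. In vehicle tumors Mlkl and Zbp1 led at 19.8 ± 0.72 and 19.8 ± 6.10 FPKM and could not be ordered, since vehicle 3 had more Zbp1 than Mlkl. Mavs came next there at 12.0 ± 1.33 FPKM, above Ddx58 (9.73 ± 1.34) in 2 of 3 tumors, Adar stood at 9.44 ± 0.92 and Eif2ak2 at 7.74 ± 0.84, and Dhx58 (5.84 ± 1.33) and Ifih1 (5.53 ± 0.56) overlapped. Ripk3 was again lowest, at 4.36 ± 0.51 FPKM.

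**Figure D4:**
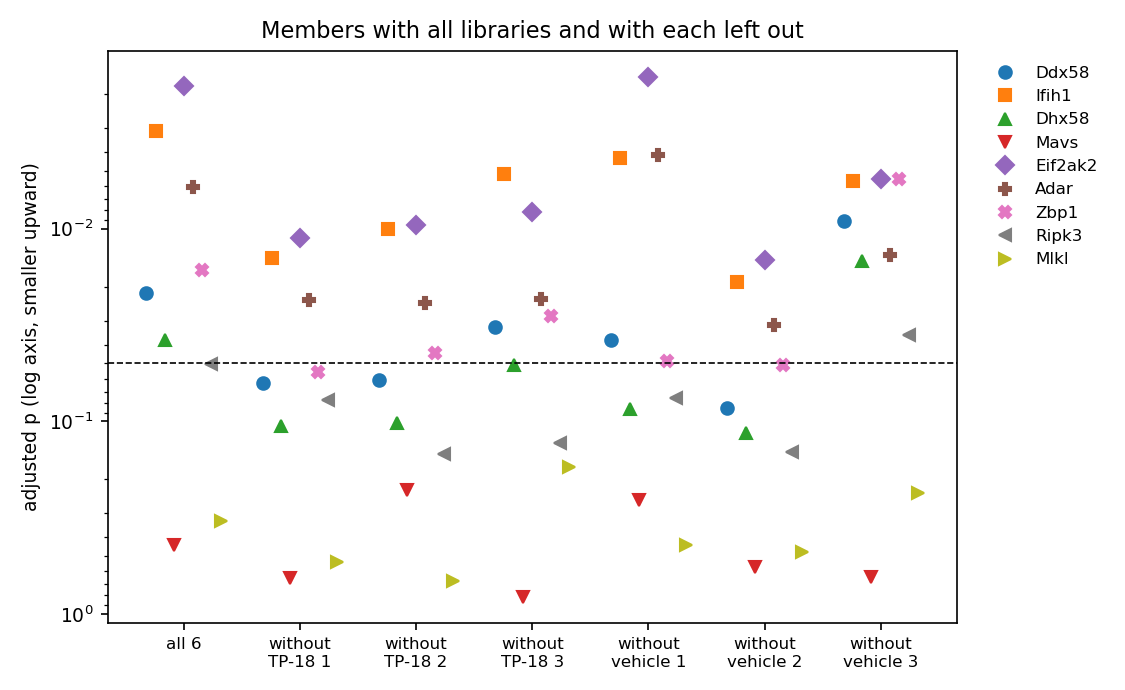
Adjusted p of each gene (log axis, smaller upward) in edgeR's quasi-likelihood test with all 6 libraries and with each library left out; the dashed line marks 0.05. Ifih1, Eif2ak2 and Adar stay above the line in all 7 fits, and Mavs and Mlkl below it.

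Genes that work with these sensors were examined in 6 lists of 93 symbols, of which 78 were in the table and 72 were tested. Of the 72, 13 rose and 4 fell with TP-18, beside 7.09% higher and 5.26% lower of all tested genes. The median log2 change of the 72 was 0.11. Of these 17 calls, 9 held whichever library was left out. The higher calls numbered 7 without vehicle 2 and 8 without TP-18 1 or TP-18 2, and the lower calls 2 without any 1 library other than vehicle 1, where they numbered 3. DESeq2 called 19 higher and 4 lower and limma-voom 17 and 4. In the lists of receptor partners, OAS genes and DNA sensors, where 0 genes were called lower, 1, 0 and 1 were lower at an unadjusted p under 0.05 and 0 by DESeq2 or limma-voom. In the list of PKR, eIF2 alpha and RNA-binding partners, where 0 were called higher, 0 were higher at an unadjusted p under 0.05 or by either tool.

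Among partners of RIG-I-like receptor and TLR3 signalling, 3 of 19 rose and 0 fell, with a median log2 change of 0.06. Tlr3, the endosomal receptor for paired RNA, had 39.7, 41.5 and 34.0 CPM in TP-18 tumors, against 19.6, 14.8 and 16.1 CPM in vehicle tumors, a log2 change of 1.19 ± 0.13 (adjusted p = 0.00311). Of the kinases that act after the adaptors, Tbk1 rose by 0.43 ± 0.09 (adjusted p = 0.0251) and Ikbke by 0.77 ± 0.17 (0.0286) on the log2 scale. The call on Tbk1 was lost without vehicle 2 (0.0655), TP-18 1 (0.0869) or TP-18 2 (0.0779), and that on Ikbke without TP-18 1 (0.0810), TP-18 2 (0.0760), vehicle 1 (0.0536) or vehicle 2 (0.105). Leaving out vehicle 2, TP-18 1 or TP-18 2 thus left 1 gene called in this list. Irf7, the interferon-inducible transcription factor of the pathway, measured 208 ± 63.6 CPM in TP-18 tumors and 99.4 ± 27.4 CPM in vehicle tumors. Its groups did not overlap, but it missed the threshold (adjusted p = 0.0575). That p was 0.0309 without vehicle 3 and 0.0681 or more without any other library. Irf7 passed by DESeq2 (7.57e-05) and limma-voom (0.0349) and missed with no filter on low counts (0.159). Irf3, its constitutive counterpart, measured 35.0 ± 3.95 and 33.7 ± 7.09 CPM in TP-18 and vehicle tumors (adjusted p = 0.842), the TLR3 adaptor Ticam1 13.9 ± 0.85 and 14.9 ± 1.09 CPM (0.596), and Trim25, a ubiquitin ligase for RIG-I, 108 ± 21.4 and 87.6 ± 19.8 CPM (0.349).

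Of the genes in the list of OAS and partners, where OAS enzymes are activated by double-stranded RNA, 3 of 9 rose and 0 fell, with a median log2 change of 0.70. Oasl2, an OAS-like protein, rose by 1.49 ± 0.30, Oas3 by 1.36 ± 0.31 and Oas1a by 0.70 ± 0.18 on the log2 scale, with adjusted p-values of 0.0313, 0.0396 and 0.0444. None of these 3 calls held whichever library was left out. Without vehicle 1, vehicle 2, TP-18 1 and TP-18 2 in turn, the adjusted p was 0.0828, 0.0833, 0.0902 and 0.0654 for Oasl2, 0.0999, 0.120, 0.101 and 0.0686 for Oas3, and 0.0944, 0.122, 0.130 and 0.119 for Oas1a, which also missed without TP-18 3 (0.0562). The number of genes called in this list was 6 without vehicle 3 and 5 by DESeq2, and 1 with no filter on low counts.

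Among genes of eIF2 alpha signalling, which are not particular to PKR, and binders of paired RNA, 0 of 15 rose and 3 fell. The median log2 change was -0.04. Ppp1r15a, which encodes the stress-induced phosphatase subunit GADD34, had 82.7, 113 and 108 CPM in TP-18 tumors, against 247, 254 and 232 CPM in vehicle tumors. Ddit3, the gene of the stress factor CHOP, had 44.0, 64.1 and 61.2 CPM in TP-18 tumors, against 133, 148 and 129 CPM in vehicle tumors. Both groups of 3 were well separated, and the log2 changes were -1.27 ± 0.12 (adjusted p = 0.00182) and -1.28 ± 0.14 (0.00335), each past the threshold whichever library was left out. Atf4, the transcription factor translated when eIF2 alpha is phosphorylated, fell by 0.44 on the log2 scale (adjusted p = 0.0241), to 460 ± 40.8 CPM in TP-18 tumors, against 623 ± 26.8 CPM in vehicle tumors. Its call was kept without vehicle 1 and lost on leaving out TP-18 1 (0.0811), TP-18 2 (0.0690), vehicle 2 (0.0674), TP-18 3 (0.0536) or vehicle 3 (0.0513). Eif2ak3, the gene of PERK, a sister kinase of PKR, measured 32.0 ± 1.36 and 30.6 ± 3.54 CPM in TP-18 and vehicle tumors (adjusted p = 0.713). In the list of immediate early and heat shock genes, which can mark handling of tissue, 2 of 6 were lower, and their summed level was 472 to 511 CPM in TP-18 tumors and 854 to 1008 CPM in vehicle tumors; its part in the falls was not tested. Without vehicle 1 all 6 of these stress genes were lower, without vehicle 2 or vehicle 3 1 was, and without any 1 TP-18 library 0 were.

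In the list of necroptosis genes and their regulators, which also holds genes of other kinds of cell death, 3 of 15 rose and 1 fell. The median log2 change was 0.16. Tnf, the cytokine that can start necroptosis through its receptor, had 6.48, 8.43 and 5.05 CPM in TP-18 tumors, against 1.79, 1.84 and 1.91 CPM in vehicle tumors, a log2 change of 1.85 ± 0.25 (adjusted p = 0.00564). Birc3, a ubiquitin ligase that holds back cell death, rose by 0.80 ± 0.11 (0.00682) and Casp1, the inflammatory caspase, by 0.75 ± 0.10 (0.00491) on the log2 scale. These 3 passed whichever library was left out. Pgam5, a mitochondrial phosphatase, fell by 0.33 on the log2 scale (adjusted p = 0.0312), and its adjusted p was 0.0540 to 0.113 with any 1 of the 6 libraries left out. Ripk1, the kinase that starts the TNF branch, measured 69.7 ± 1.27 and 59.1 ± 2.05 CPM in TP-18 and vehicle tumors (adjusted p = 0.0611), and Casp8, the protease that blocks necroptosis, 42.6 ± 1.66 and 38.2 ± 4.92 CPM (0.344).

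In the list of DNA sensing, which also holds genes other than sensors, 3 of 13 genes were higher and 0 lower. The median log2 change was 0.32. Samhd1, which depletes nucleotides, had 344, 401 and 290.3 CPM in TP-18 tumors, against 135, 120 and 150 CPM in vehicle tumors, a log2 change of 1.36 ± 0.13 (adjusted p = 0.00195). Tlr9, an endosomal DNA receptor, rose by 2.51 ± 0.30 (0.00365) and Sting1, the adaptor of the DNA sensor cGAS, by 0.72 ± 0.12 (0.0121) on the log2 scale. Sting1 missed without vehicle 2 (0.0589) and without TP-18 3 (0.0556). The number called in this list was 5 without vehicle 3, and also 5 by DESeq2, by limma-voom and by limma on log2(FPKM + 1) or log2(FPKM + 0.1). Cgas itself measured 20.4 ± 2.50 CPM in TP-18 tumors and 16.4 ± 2.92 CPM in vehicle tumors (adjusted p = 0.212).

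**Figure D5:**
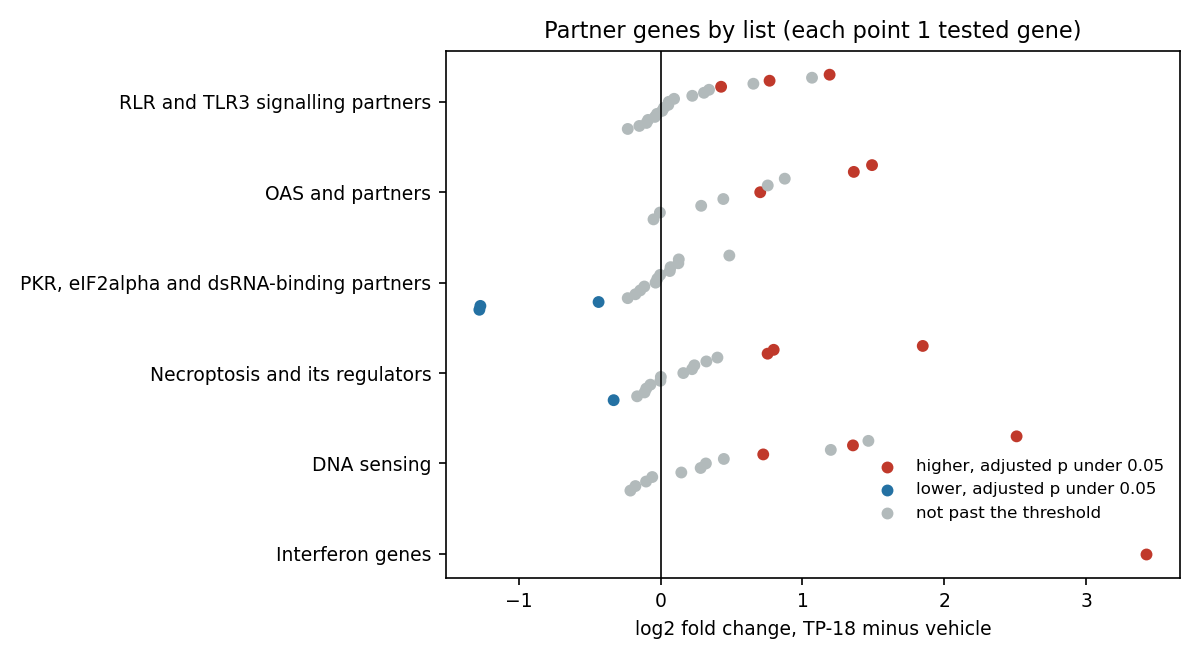
Log2 fold change, TP-18 minus vehicle, of each of the 72 tested partner genes by list, coloured by the call of edgeR's quasi-likelihood test. The calls in the list of PKR, eIF2 alpha and RNA-binding partners lie on the negative side, at -0.44 to -1.28. The highest value in that list is 0.48.

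Reads of the type I and type III interferon genes, the output of the pathway, were scarce. Ifnb1, the first type I interferon made after RNA sensing, had 1, 3 and 1 reads in TP-18 tumors, against 1, 1 and 4 reads in vehicle tumors, and was not tested. Of 20 interferon symbols listed, only 7 were in the table, Ifng included. All 6 type I and type III interferon genes in the table (Ifna1, Ifna4, Ifnb1, Ifne, Ifnl3 and Ifnz) together had 13 reads in TP-18 tumors and 13 in vehicle tumors. Ifna1, Ifna4 and Ifnl3 were at 0 reads in all vehicle tumors, which allows up to 0.0286 CPM (3 counts over the group), and at 1 read each in TP-18 tumors. At this depth no difference in these genes was detectable, and reads shared between close copies of the Ifna family may have been left out of the counts. Ifng, which belongs to neither type, had 134, 166 and 87 reads in TP-18 tumors, against 16, 4 and 12 reads in vehicle tumors. Its log2 change was 3.42 ± 0.50 (adjusted p = 0.00726).

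Markers of other cell types moved with the same comparison. T cell markers were higher in 8 of 8 genes, with a summed level of 65.3 to 68.8 CPM in TP-18 tumors and 9.19 to 24.7 CPM in vehicle tumors, and NK cell markers in 6 of 6, with 84.0 to 119 and 19.0 to 26.5 CPM. Dendritic cell markers were higher in 4 of 7 genes, at 34.8 to 55.1 CPM in TP-18 tumors and 18.7 to 25.6 CPM in vehicle tumors, and macrophage and monocyte markers in 1 of 8, at 1186 to 1287 and 685 to 1027 CPM. B and plasma cell markers were higher in 2 of the 3 tested, at 2.93 to 5.42 and 0.375 to 1.28 CPM. The T cell count was 2 of 8 without TP-18 2 or TP-18 3 and 3 of 8 without vehicle 2 or TP-18 1, and the dendritic cell count was 1 of 7 without TP-18 3. Macrophage and monocyte markers were higher in 4 of 8 without vehicle 1, and B and plasma cell markers in 1 of the 3 tested without TP-18 2 or TP-18 3.

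Skeletal muscle markers were higher in 4 of 6 genes, at 50.1 to 102 CPM in TP-18 tumors and 8.09 to 27.4 CPM in vehicle tumors, and red blood cell markers were lower in 4 of the 5 tested, at 14.8 to 33.9 and 66.3 to 395 CPM. Without vehicle 2 or any 1 TP-18 library 0 of 5 red blood cell markers passed, and the muscle count was 2 of 6 without vehicle 2, TP-18 1 or TP-18 3. Neutrophil markers were called in 0 of 5 tested genes, at 58.1 to 84.7 CPM in TP-18 tumors. Vehicle tumors had 32.1 to 325 CPM, with the highest value in vehicle 3. Fibroblast, endothelial and adipocyte markers were called in 0 of 6, 0 of 6 and 0 of 3 tested genes, and their summed levels were 2317 to 3321, 99.8 to 199 and 52.7 to 82.8 CPM in TP-18 tumors and 1967 to 4003, 63.7 to 150 and 19.9 to 36.5 CPM in vehicle tumors. In these 4 lists edgeR's unadjusted p was under 0.05 for 0 neutrophil, 1 fibroblast, 0 endothelial and 2 adipocyte genes, and DESeq2 called 0, 1, 0 and 2 of them and limma-voom 0. Without vehicle 3, 1 neutrophil and 1 fibroblast gene passed as higher, and without TP-18 2, 1 adipocyte gene. No marker of any list was at 0 reads in a whole group. The part of these cell types in the changes of the RNA sensors was not tested.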

How the data were processed

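Gene counts for 6 tumors were deposited by the authors as whole numbers, not normalized. FPKM values, also deposited by the authors, equal the counts over gene length and library total, which was checked in 15884 genes. Per the submitters' processing notes, fastp, HISAT2, HTSeq and GRCm38 were used; tool versions, strandedness and the handling of multimapping reads are not given in the sources used. Both tables were used in full.

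The members and gene lists were chosen with earlier results of these data known, and the alternatives were then fixed. Groups came from the treatment label, with 3 tumors each; nothing states that the samples came from separate mice, so p-values measure the spread between these samples, which may be technical. Genes were kept by filterByExpr (minimum count 10, minimum total 15), scaled by TMM and tested in R 4.3.3 with edgeR 4.0.16 (robust quasi-likelihood F test, two-sided, group as the only term). Benjamini-Hochberg adjustment ran over all 14189 tested genes, with a threshold of 0.05. A log2 change is TP-18 minus vehicle (prior count 0.125), its SE comes from the F statistic, and CPM are TMM-scaled, with the SD taken over 3 tumors per group. Errors cover the spread between libraries; PCR copies cannot be recognized in these tables.

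All 9 members are named, as are up to 4 called genes of each of 6 partner lists by smallest p and 16 partners chosen for their role, of which 1 is counted in its list but not reported by name here. For 13 marker lists counts and summed levels are given. Of 93 partner symbols, 15 are not analysed here, and all 85 marker symbols matched. Coordinates and promoters are from RefSeq on GRCm38.p6. Alternatives were other scalings, filters and moderation, a replicate block, DESeq2 1.42.0, limma 3.58.1 (voom, and trend on log2(FPKM + 1) and log2(FPKM + 0.1)) and leaving out each library. The edgeR fit was also run on simulated counts, only as a check that it returned the median log2 change put in. The 2 promoter motifs were search patterns taken from general knowledge, not from the deposited files, and were matched exactly on both strands of the RefSeq windows.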

Additional observations from a re-analysis of the deposited data

How the results depend on the processing

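All 9 log2 changes stayed positive under all 16 alternatives. Of the member results under alternatives, 124 kept their side of the threshold, 13 lost the call and 7 gained it, the gains being all in Ripk3. Ifih1, Eif2ak2 and Adar were called under all 16, Zbp1 under 13, Ddx58 under 12, Dhx58 under 10, Ripk3 under 7, and Mavs and Mlkl under 0. Ripk3 gained the call under upper-quartile scaling (adjusted p = 0.0423), no filter (0.0411), a filter of 1 CPM in 3 libraries (0.0480), DESeq2 (0.0132), limma on log2(FPKM + 1) (0.0265) and on log2(FPKM + 0.1) (0.0224). Members called higher numbered 3 to 7 with 1 library left out, and 0 were lower. All genes then gave 388 to 1216 higher and 111 to 1023 lower calls, and the partners 7 to 19 and 2 to 3; each such fit holds fewer tumors. DESeq2 called 1235 genes lower. Limma on log2(FPKM + 1) and log2(FPKM + 0.1) called 215 and 230 genes lower and 2 partners lower each; without a further scaling, the median over all genes moved to 0.13 with the smaller pseudocount.

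No pairing of tumors is stated in the labels. Deviations of equally numbered tumors from their group means correlated at 0.24, -0.08 and -0.04, and TP-18 2 and TP-18 3 correlated best with a vehicle tumor of another number. With the replicate number as a block, 3 members, 547 of all genes and 8 partners were higher, and 231 of all genes and 2 partners were lower; 0 of the OAS list and 1 of the receptor partners were then called. Counts of single partner lists moved by over 1.5 times in 17 of 96 cases. The causes were not tested. Depth limits the interferon genes, with 13 reads per group over the 6 type I and type III genes, while each member had at least 276 reads per library.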
